A study of Mus musculus with 4 samples.

Results

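Aggrecan (*Acan*), versican (*Vcan*), the link protein genes *Hapln1* and *Hapln3*, the matrilin genes *Matn1*, *Matn2*, *Matn3* and *Matn4*, and *Cilp* and *Cilp2* were followed by gene symbol through bulk RNA-seq of sorted Osr1+ limb cells. They are 10 of the 23284 genes in the count tables, listed by symbol with earlier results of these data known. Cells came from the limbs of E13.5 C57BL/6J mouse embryos. Both genotypes carried the GCE allele, a knock-in of eGFP and CreERt2 at *Osr1*, in 1 copy (GCE/+, 2 embryos) or in both copies (GCE/GCE, 2 embryos), named below as controls and mutants. Live GFP-expressing cells were sorted from a collagenase digest, so both groups were selected on GFP made from the *Osr1* locus, and the controls were heterozygous rather than wild type. Each library came from a different embryo. The question was how the transcriptome of these connective tissue cells differs when *Osr1*, a zinc finger transcription factor gene, is lost.

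Aggrecan and versican are lecticans, large core proteins that carry chondroitin sulfate chains and bind the polysaccharide hyaluronan through their N-terminal globular domain. A link protein binds both partners and stabilises the complex. Aggrecan aggregates, held by HAPLN1, give cartilage its resistance to compression, whereas versican is typical of loose and developing mesenchyme. Matrilins are oligomeric adaptor proteins that connect collagen fibrils to proteoglycans. MATN1 and MATN3 are cartilage matrix proteins, while MATN2 and MATN4 are also found in loose connective tissue. CILP is a secreted protein of cartilage and other fibrous tissues, and CILP2 is its close relative.

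The DNA just upstream of *Acan*, *Matn1*, *Matn4* and *Cilp* is shown because the first and second of these genes had the largest differences between the genotypes among the 10 genes and the others were those past the test's threshold. Each run is the 250 bases before the transcription start in RefSeq on GRCm38.p6, read 5′ to 3′ on the strand of the gene. Capitals mark matches on either strand to a GC box (GGGCGG), to a CCAAT box (CCAAT) or to a TATA box (the letters TATAAAA, or with the last base changed TATAAAT, or with an inner base changed TATATAA, or with both changes TATATAT).
Acan: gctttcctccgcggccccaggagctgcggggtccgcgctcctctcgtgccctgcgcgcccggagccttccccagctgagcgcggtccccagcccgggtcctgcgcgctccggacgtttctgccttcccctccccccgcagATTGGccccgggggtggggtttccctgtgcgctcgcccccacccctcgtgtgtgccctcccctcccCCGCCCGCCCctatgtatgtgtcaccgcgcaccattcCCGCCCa
Matn1: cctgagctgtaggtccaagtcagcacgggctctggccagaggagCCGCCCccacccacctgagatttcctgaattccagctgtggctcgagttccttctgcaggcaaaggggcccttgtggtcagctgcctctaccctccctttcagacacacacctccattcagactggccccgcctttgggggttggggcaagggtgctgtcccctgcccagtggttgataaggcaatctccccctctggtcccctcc
Matn4: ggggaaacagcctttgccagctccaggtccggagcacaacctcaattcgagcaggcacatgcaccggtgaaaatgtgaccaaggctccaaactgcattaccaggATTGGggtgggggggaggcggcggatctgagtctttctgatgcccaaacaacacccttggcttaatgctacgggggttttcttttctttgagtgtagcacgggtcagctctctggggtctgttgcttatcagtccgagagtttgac
Cilp: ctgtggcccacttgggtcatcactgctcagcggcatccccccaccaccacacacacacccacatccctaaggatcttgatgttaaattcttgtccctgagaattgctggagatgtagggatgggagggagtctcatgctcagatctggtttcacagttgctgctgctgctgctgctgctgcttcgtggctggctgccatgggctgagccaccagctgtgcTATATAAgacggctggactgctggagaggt
The windows are chr7:79052976-79053225 on the plus strand for *Acan*, chr4:130944135-130944384 on the plus strand for *Matn1*, chr2:164405161-164405410 on the minus strand for *Matn4*, and chr9:65264930-65265179 on the plus strand for *Cilp*. The *Matn4* window lies inside *Rbpjl*, a gene on the opposite strand. RefSeq gives *Matn4* a second start, whose window (chr2:164404819-164405068) is not shown, has 62.8% G and C and holds a GC box match 6 bases before that start. The sequences differed in make-up, from 74.4% G and C at *Acan* to 62.0% at *Matn1*, 56.0% at *Cilp* and 54.4% at *Matn4*, where the median of all 32851 promoter windows was 52.4%. Of the 4 runs, that of *Cilp* alone held a TATA box match, 30 bases before the start, and 11.473% of all promoters hold one. Among the runs shown, GC box matches stood before *Acan* and *Matn1*, and they are found in 32.742% of all promoters, and a CCAAT box match stood before *Acan* and *Matn4* and is found in 33.85%. RefSeq windows were at hand for 9 of the 10 genes, and *Matn2* had no entry. The odd-skipped core CAGTAGC was in none of the windows of these 9 genes and in 3.035% of all promoters, and ACAATG or ACAAAG, letters bound by SOX proteins, were also in none of them and in 25.241% of all promoters. These matches describe letters only.

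The tables held 52121596 to 61402140 counts per embryo, so that 3 counts stood for 0.0489 to 0.0576 CPM. CPM here are counts scaled to a common library size with edgeR's TMM factors, which ran from 0.9936 to 1.006. *Osr1* itself had 81.9 and 79.08 CPM in the GCE/+ embryos and 11.9 and 13.92 CPM in the GCE/GCE embryos, which matches the genotype labels. The fall was 2.64 on the log2 scale with a standard error (SE) of 0.11, and edgeR gave an adjusted p of 5.94e-05. *Col3a1* and *Col1a1*, collagen genes of connective tissue, were among the markers of the sorted cells, with 6846 to 9550 CPM and 2627 to 3683 CPM. The mutants differed in sex, since *Xist* stood at 1142 CPM in replicate 1 of GCE/GCE and nowhere else above 2.628 CPM. With 2 embryos a genotype, a two-sided exact permutation test of a single value cannot give a p below 0.333, so the tests below are those of edgeR's quasi-likelihood fit over all 15645 genes that passed its filter on low counts, with p-values adjusted over all of them by Benjamini-Hochberg and a threshold of 0.1.

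All 10 genes passed that filter. Their levels were set by gene more than by genotype, from *Vcan* at a mean of 1008 CPM to *Hapln3* and *Cilp2* near 1 CPM. *Matn4* and *Cilp* were higher in GCE/GCE cells, 2 of the 10 genes, and 0 were lower. Over all genes the test called 0.895% higher and 0.927% lower. DESeq2, the tool of the study, called the same *Matn4* and *Cilp* and none of the other 8, where it called 1.77% of 14707 genes higher and 1.69% lower. *Acan*, *Hapln1*, *Matn1* and *Matn3* had values in the same direction that did not pass, and in these genes the 2 GCE/+ embryos also differed from each other. In 7 of the 10 genes both GCE/GCE embryos lay above both GCE/+ embryos, an order found in 19.2% of all genes, and in 1 of them, *Hapln3*, both lay below, an order found in 19.1%. An unadjusted p below 0.05 was reached by 6 of the 10 genes and by 1640 of the 15645.

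**Figure D1:**
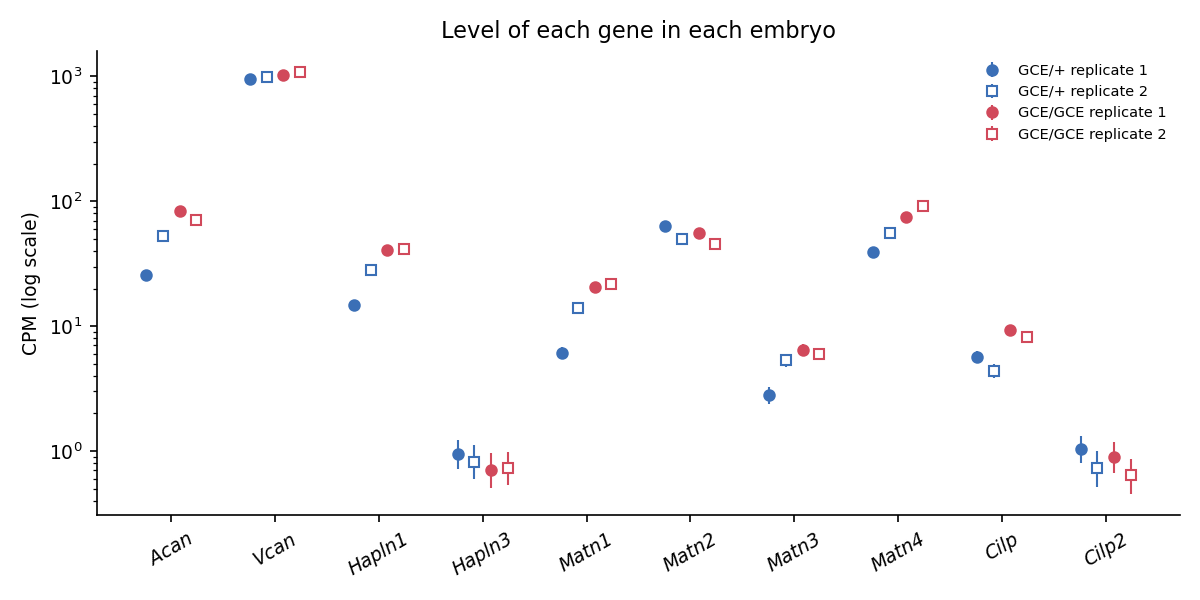
Level of each of the 10 genes in each of the 4 embryos, in CPM on a log axis, with bars for the 95% exact Poisson interval of the counts (smaller than the symbol where not seen). GCE/+ replicate 1 was lowest for *Acan*, *Vcan*, *Hapln1*, *Matn1*, *Matn3* and *Matn4*, and *Vcan* lay far above the rest in every embryo.

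*Acan* had 25.46 and 53.03 CPM in GCE/+ replicates 1 and 2 and 84.12 and 71.32 CPM in the GCE/GCE embryos. Both GCE/GCE values were above both GCE/+ values, but on the log2 scale the control embryos stood further apart than the higher of them stood from either mutant. The log2 fold change of *Acan* was 0.99 (SE 0.28, 95% interval 0.36 to 1.62), and its adjusted p from edgeR was 0.181. DESeq2 gave an adjusted p of 0.624. The group means were 39.24 ± 19.5 and 77.72 ± 9.045 CPM (SD, n = 2 each). Counting error was small beside this, as the 95% exact Poisson intervals of the 2 control embryos were 24.2 to 26.76 and 51.08 to 55.04 CPM. That interval covers counting error only. Without GCE/+ replicate 1 the log2 fold change was 0.55, and without GCE/+ replicate 2 it was 1.61.

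*Vcan* was the most abundant of the genes, ranked 68 of all tested genes by mean CPM. It had 947.0 and 992.1 CPM in the control embryos against 1016 and 1076 CPM in the mutants. The groups did not overlap, but the lowest and highest embryos were close together. The log2 fold change was 0.11 (SE 0.11, 95% interval -0.13 to 0.35, adjusted p = 0.86), and it was -0.07 once a trend of each library on exon length was taken out. *Acan* counts per *Vcan* count were 0.02688 and 0.05346 in GCE/+ embryos and 0.08281 and 0.06626 in GCE/GCE embryos. This ratio of the cartilage lectican to the mesenchymal one was highest in GCE/GCE replicate 1, and the groups did not overlap. The share of gene ratios with such an order was not computed.

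*Hapln1*, the link protein gene of cartilage, followed *Acan*. It had 14.7 and 28.07 CPM in the control embryos against 40.81 and 41.51 CPM in the mutants. The 2 mutants were almost level, while the 2 controls were well apart. The log2 fold change was 0.95 (SE 0.24, 95% interval 0.39 to 1.50), and the adjusted p of 0.142 did not pass. *Hapln1* counts per *Acan* count were 0.5774 and 0.5294 in GCE/+ embryos and 0.4852 and 0.582 in GCE/GCE embryos. The groups overlapped in this ratio, so link protein and aggrecan transcripts kept a like proportion in all 4 embryos. *Hapln3*, another link protein gene, was near the lower limit of the data with 58, 43, 41 and 45 counts in GCE/+ replicates 1 and 2 and GCE/GCE replicates 1 and 2. These came to 0.9525 and 0.8223 CPM against 0.7063 and 0.7351 CPM. Its log2 fold change of -0.30 (SE 0.27, adjusted p = 0.838) did not pass, and with overlapping counting intervals no difference was detectable at this depth.

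*Matn1*, a gene of cartilage matrix, had the largest log2 fold change of the 10 genes and one of the widest control pairs. Its values were 6.109 and 14.0 CPM in the controls against 20.57 and 21.91 CPM in the mutants. Again the mutants lay together, above both controls. The log2 fold change of 1.08 (SE 0.31, 95% interval 0.38 to 1.79) had an adjusted p of 0.188. *Matn3*, whose product can join MATN1 in mixed oligomers, had 2.792 and 5.316 CPM in the control embryos against 6.477 and 5.93 CPM in the mutants. The second control embryo came close to the mutants. The log2 fold change of *Matn3* was 0.62 (SE 0.27, 95% interval 0.00 to 1.24, adjusted p = 0.473). *Matn1* counts per *Matn3* count were 2.188 and 2.633 in GCE/+ embryos and 3.176 and 3.694 in GCE/GCE embryos, and the groups did not overlap. The *Matn3* counts were 170 and 278 against 376 and 363. How often ratios of other genes show such an order was not computed.

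*Matn4* was the matrilin gene that passed the test. It had 39.27 and 55.21 CPM in the control embryos against 75.12 and 90.78 CPM in the mutants. All mutant values were above all control values, and neither pair was as far apart as the controls of *Acan*. *Matn4* rose by 0.81 on the log2 scale (SE 0.16, 95% interval 0.45 to 1.18), with an adjusted p of 0.0679 from edgeR, from a mean of 47.24 ± 11.27 to 82.95 ± 11.07 CPM (SD, n = 2 each). DESeq2 gave an adjusted p of 4.65e-05. The call was lost with a robust fit (adjusted p = 0.116) and without the filter on low counts (adjusted p = 0.162). Exons of *Matn4* overlap those of *Rbpjl* on the other strand over 71 bases, and the library kit does not mark strand. *Rbpjl* itself had 11 to 26 counts an embryo.

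*Matn2*, the other matrilin of loose connective tissue, did not share this order. It had 63.15 and 50.07 CPM in the control embryos against 55.76 and 45.58 CPM in the mutants. The groups overlapped, and the log2 fold change was -0.16 (SE 0.14, 95% interval -0.47 to 0.15, adjusted p = 0.825). Without GCE/+ replicate 1 it was 0.01. *Matn4* counts per *Matn2* count were 0.6218 and 1.103 in GCE/+ embryos and 1.347 and 1.992 in GCE/GCE embryos. *Matn2* was thus the more abundant of the pair in GCE/+ replicate 1 by counts, and *Matn4* in the other 3 embryos.

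*Cilp* was the second gene past the threshold, at a low level. It had 5.699 and 4.379 CPM in the control embryos against 9.233 and 8.217 CPM in the mutants, from 347 and 229 counts against 536 and 503 counts. Here GCE/+ replicate 1 was the higher control, the reverse of the order seen for *Acan*. *Cilp* rose by 0.79 on the log2 scale (SE 0.17, 95% interval 0.39 to 1.19), with an adjusted p of 0.0988, just under the threshold, by edgeR's quasi-likelihood test and of 0.0112 by DESeq2. Without GCE/+ replicate 2 the adjusted p was 0.119, with an offset for exon length it was 0.112, and without the filter on low counts it was 0.171. *Cilp2* had 63, 38, 52 and 39 counts in GCE/+ replicates 1 and 2 and GCE/GCE replicates 1 and 2. At 1.035 and 0.7267 CPM against 0.8958 and 0.6371 CPM the groups overlapped. The log2 fold change of -0.22 (SE 0.31) had an adjusted p of 0.93, and no difference was detectable at this depth. Leaving out GCE/+ replicate 1 turned the value to 0.07.

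**Figure D2:**
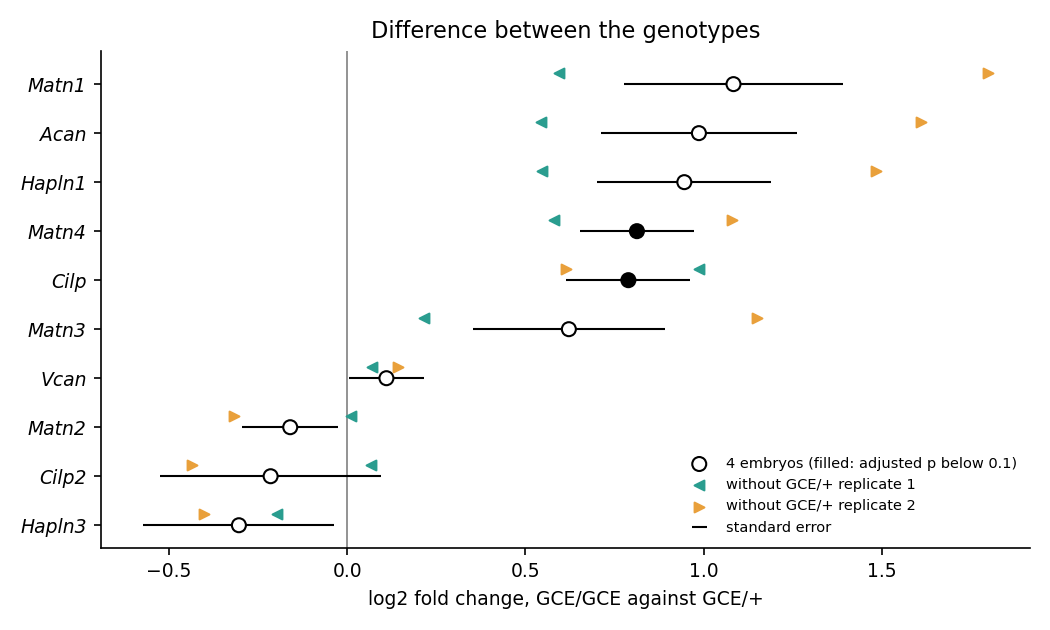
Log2 fold change of each gene, GCE/GCE against GCE/+, from edgeR's fit of the 4 embryos (circles, filled where the adjusted p was below 0.1, with bars of 1 standard error), beside the same value when one control embryo was left out (triangles). *Matn4* and *Cilp* are filled, and the triangles of *Acan*, *Hapln1*, *Matn1* and *Matn3* lie far to either side of the circles.

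The spread between embryos of 1 genotype was uneven over the genes. As log2 ratios of GCE/+ replicate 2 to replicate 1, *Matn1* had 1.20, *Acan* 1.06, *Hapln1* 0.93 and *Matn3* 0.93. Each of these exceeded the 95th percentile of 0.73 over all genes, and only 1.5% of genes had a larger control difference than *Matn1* and 2.05% a larger one than *Acan*. *Matn4* followed at 0.49. *Vcan* was at 0.07 and *Cilp* at -0.38, against a median size of 0.16 over all genes. Between the GCE/GCE embryos the same ratios were 0.09 for *Matn1*, -0.24 for *Acan*, 0.02 for *Hapln1* and -0.13 for *Matn3*. These 4 were all smaller in size than the mutants' 95th percentile of 0.68, so the wide pairs were those of the controls. With any 1 embryo left out, *Acan* and *Hapln1* passed the threshold, at log2 fold changes of 0.55 to 1.61 and 0.55 to 1.49, and *Matn1* passed in all such fits but that without GCE/+ replicate 1, at 0.60 to 1.80. *Matn3* passed without GCE/+ replicate 2 only, over values of 0.22 to 1.15. These fits do not weigh the spread of the controls: without a GCE/+ embryo that pair is gone, and without a GCE/GCE embryo the prior degrees of freedom were infinite, so each gene's own spread was replaced by the trend over all genes.

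**Figure D3:**
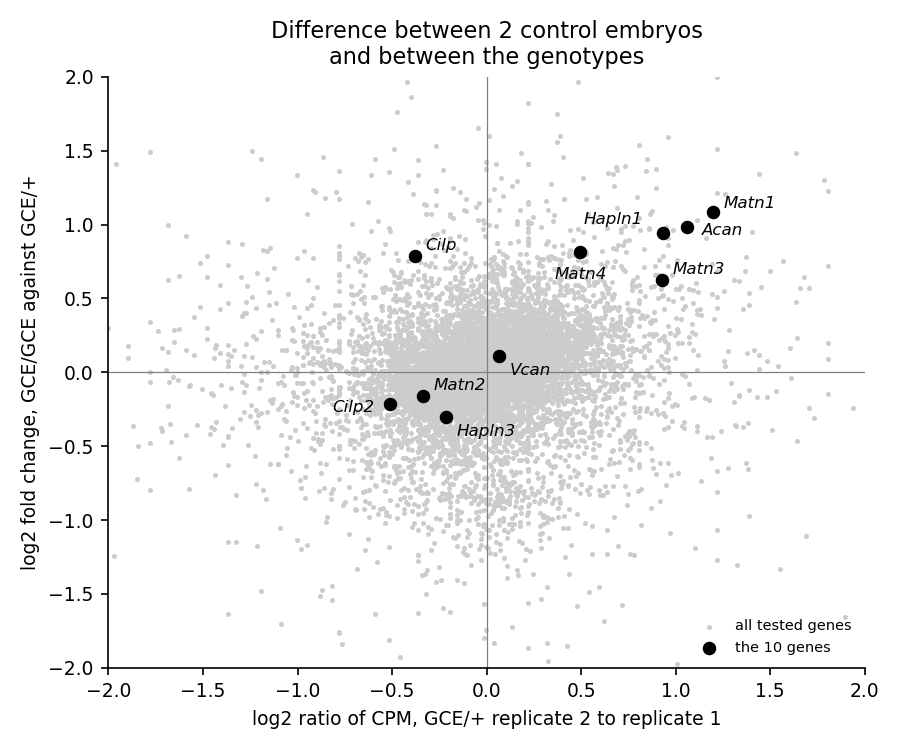
Each gene by its log2 ratio of CPM between the 2 GCE/+ embryos (horizontal) and its log2 fold change between the genotypes (vertical), with all tested genes in grey, of which 64 lie outside the axes. *Matn1*, *Acan*, *Hapln1* and *Matn3* sit at the upper right, where the difference between the control embryos is about as large as that between the genotypes or larger, and *Cilp* sits at the upper left.

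Compared per length of exon, *Vcan* led with a mean of 75.18 CPM per kb, ahead of *Matn4* at 27.5. *Matn2* at 8.797, *Acan* at 7.951, *Matn1* at 7.819 and *Hapln1* at 5.472 CPM per kb formed a middle group, in which the ranges of *Acan* and *Matn1* over the embryos overlapped those of all the others, while *Hapln1*, at most 7.263, stayed below *Matn2*, at least 7.476. Below them were *Matn3* at 1.702 and *Cilp* at 1.657 CPM per kb, which overlapped each other, and last *Hapln3* at 0.2394 and *Cilp2* at 0.1909 CPM per kb, which also overlapped. *Vcan*, *Matn4* and these 3 groups were apart from each other in all 4 embryos. On this scale versican transcripts exceeded aggrecan transcripts in the sorted cells of every embryo, at 70.64 to 80.3 CPM per kb against 3.461 to 11.44.

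Most cartilage markers other than the 10 genes moved with *Acan*, *Hapln1*, *Matn1* and *Matn4*. *Col2a1*, the main fibril collagen of cartilage, had 359.0 and 571.4 CPM in the control embryos against 789.9 and 878.5 CPM in the mutants. The summed level of 12 cartilage markers was 684.5 and 1052 CPM in GCE/+ embryos and 1449 and 1622 CPM in GCE/GCE embryos. Of these, 12 of the 12 had a log2 fold change above 0, as did 7969 of the 15645 tested genes. In 10 of the 12 both mutants lay above both controls, an order found in 19.2% of all genes, while *Col10a1* and *Ihh* overlapped. The test was passed by 5 of the 12, all higher. Over the same embryos the summed level of 8 markers of the sorted connective tissue cells, *Osr1* included, was 15790 and 14360 CPM in the controls and 13360 and 11690 CPM in the mutants. *Col3a1* and *Col1a1* made up most of that sum. Of these 8, edgeR called 1 lower, *Osr1*, and DESeq2 called 4 lower. Both mutants lay below both controls in 4 of the 8, an order found in 19.1% of all genes. *Pdgfra* and *Prrx1*, at log2 fold changes of 0.05 and -0.01, overlapped between the groups. The part of these marker differences in the values of the 10 genes was not tested. *Col10a1*, the collagen gene of hypertrophic chondrocytes, was at or below 0.4016 CPM in every embryo. In bulk RNA, more cells of a cartilage type in the sort and more cartilage transcripts per cell cannot be told apart.

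Counted per 100 *Col2a1* counts of the same embryo, *Acan*, *Hapln1*, *Matn1*, *Matn3* and *Matn4* were more alike over the embryos than in CPM. *Matn4* had 10.94 and 9.662 in GCE/+ embryos and 9.51 and 10.33 in GCE/GCE embryos. *Hapln1* had 4.094 and 4.913 against 5.166 and 4.725, and *Acan* had 7.09 and 9.28 against 10.65 and 8.119. *Matn3* had 0.7776 and 0.9304 against 0.82 and 0.675. *Cilp*, whose controls stood further apart than in CPM, had 1.587 and 0.7664 against 1.169 and 0.9353. The genotypes overlapped for all of these. For *Matn1*, at 1.702 and 2.45 against 2.604 and 2.494, they did not, but only by a narrow margin. The nearest values were 2.45 in GCE/+ replicate 2 and 2.494 in GCE/GCE replicate 2, from 732 and 1341 *Matn1* counts. The share of all genes with such an order in this ratio was not computed. The ratio of *Matn2* was lower in the mutants, with 17.59 and 8.761 in GCE/+ embryos and 7.059 and 5.188 in GCE/GCE embryos. So was that of *Vcan*, with 263.8 and 173.6 against 128.6 and 122.5. Neither of those genes passed the test of its own level, at log2 fold changes of -0.16 and 0.11. Such a ratio falls where *Col2a1* rises and the gene itself does not.

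**Figure D4:**
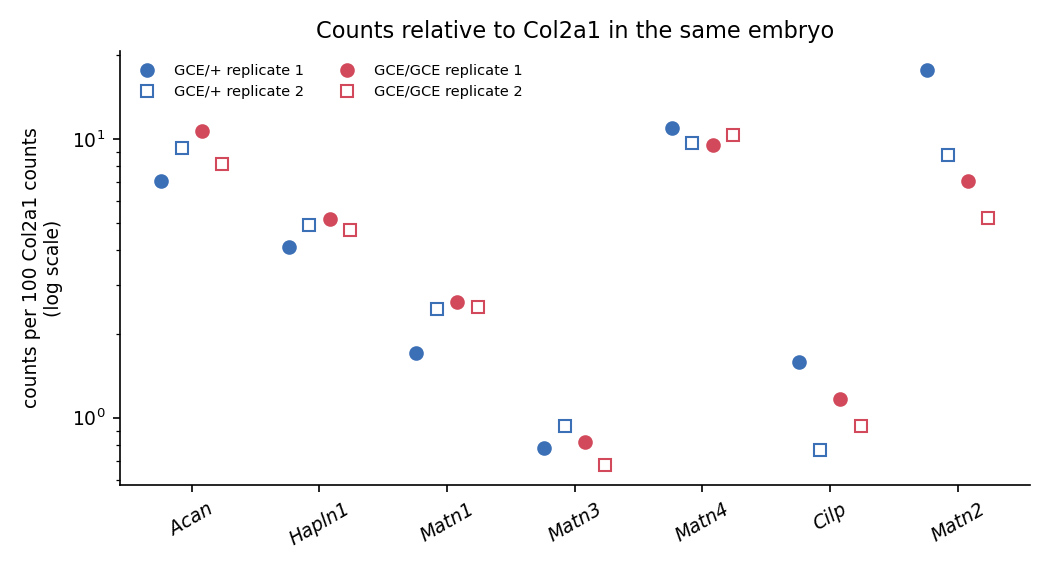
Counts of 7 of the genes per 100 *Col2a1* counts in the same embryo, on a log axis, 1 point an embryo. *Matn4* stays between 9.51 and 10.94 in all 4 embryos, whereas *Matn2* runs from 5.188 to 17.59.

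The genes whose pattern over the 4 embryos was most like that of *Acan* were found by the distance between centred log2(CPM + 1) values, among those whose mean reached 10 CPM. The nearest were *Hapln1* at 0.221, *Matn1* at 0.236, *Susd5* at 0.241, *Col11a2* at 0.282 and *Col9a1* at 0.296. Thus *Hapln1* and *Matn1* were the nearest of all. *Hapln3*, *Matn3*, *Cilp* and *Cilp2* had means below 10 CPM and so were not ranked. *Col2a1* ranked 9 and *Matn4* ranked 23, while *Vcan* ranked 2259 and *Matn2* 9311. With 4 embryos this is a description of likeness only.

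The partner genes of these proteins were taken in 5 lists, of which 59 of 61 genes were tested. In all, 8 were higher and 1 was lower in GCE/GCE cells. Of the 16 genes of cartilage fibrils and their regulators, 7 were higher, 0 were lower and 16 had a log2 fold change above 0. Their median was 0.83 beside 0.00 over all tested genes. Most of these genes were also among the cartilage markers above, including all 5 markers that passed, and *Fmod* was also a tendon marker. The lists are therefore not separate lines of evidence. *Sox9*, *Sox5* and *Sox6*, transcription factor genes that drive cartilage matrix genes including *Acan*, rose by 0.63 (SE 0.12, adjusted p = 0.0615), 1.19 (SE 0.22, adjusted p = 0.0615) and 0.97 (SE 0.20, adjusted p = 0.0806). The others were *Col11a1* at 0.78, *Fmod* at 0.79, *Col9a2* at 0.59 and *Col9a1* at 0.97. DESeq2 called all of these but *Col9a1* (adjusted p = 0.29), which edgeR put just under the threshold at 0.0988. The controls also stood apart, with log2 ratios of replicate 2 to replicate 1 of 0.81 for *Col9a1*, 0.79 for *Sox5* and 0.71 for *Sox6*. Those of *Sox9*, *Col11a1*, *Col9a2* and *Fmod* were 0.33, 0.34, 0.27 and -0.27, against a 95th percentile of 0.73 over all genes. *Col2a1* at 0.84 (SE 0.19, adjusted p = 0.106) did not pass.

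Of the 21 tested genes for making chondroitin sulfate, the chain that lecticans carry, 1 was higher and 0 were lower. *Papss2*, which makes the sulfate donor, had 31.2 and 40.94 CPM in the control embryos against 52.33 and 55.22 CPM in the mutants. It rose by 0.58 (SE 0.13), with an adjusted p from edgeR of 0.0996, just under the threshold. DESeq2 called *Papss2* (adjusted p = 0.00389) and *Chst11* (adjusted p = 0.085), both higher. *Chsy1* and *Papss1*, the most abundant of the list, were at -0.01 (SE 0.08) and -0.02 (SE 0.08), and the list's median was 0.06.

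Among 11 genes for hyaluronan synthesis, binding and breakdown, 0 were higher and 1 was lower, with a median of -0.01. *Lyve1*, a hyaluronan receptor gene of lymphatic endothelium and of some macrophages, had 37.0 and 39.84 CPM in the control embryos against 26.63 and 23.87 CPM in the mutants. On the log2 scale it fell by 0.60 (SE 0.10), with an adjusted p of 0.0409. Beside it, all 6 macrophage markers had a log2 fold change below 0, and 4 of them passed edgeR's test. They had a summed level of 225.2 and 237.7 CPM in GCE/+ embryos and 146.7 and 104.5 CPM in GCE/GCE embryos. Their part in the *Lyve1* result was not tested. *Has2*, the main hyaluronan synthase gene here, was at 169.2 to 184.8 CPM with a log2 fold change of -0.01 (SE 0.08), and *Tmem2*, a hyaluronidase gene, was at 0.30 (SE 0.11, adjusted p = 0.367). None of the 8 genes of lectican-cleaving Adamts proteases and their inhibitor *Timp3* passed by edgeR's test, 3 had an unadjusted p below 0.05, and DESeq2 called 1 of them. *Adamts1*, the most abundant, was at -0.04 (SE 0.11). *Timp3*, the gene that DESeq2 called, was at 0.39 (SE 0.09), with an adjusted p of 0.106 from edgeR and 0.00706 from DESeq2.

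**Figure D5:**
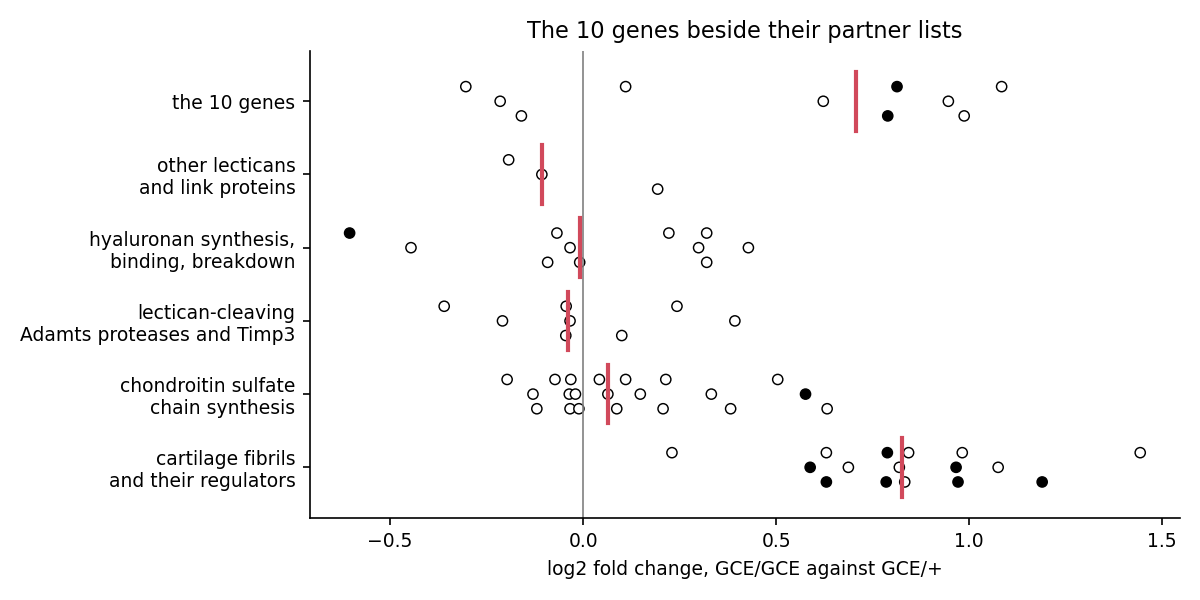
Log2 fold change, GCE/GCE against GCE/+, of the 10 genes and of the tested genes of the 5 partner lists, 1 point a gene, filled where the adjusted p was below 0.1, with a red line at each median. The genes of cartilage fibrils and their regulators lie to the right of 0, with a median of 0.83, while the medians of the other 4 partner lists lie between -0.11 and 0.06.

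Lecticans and link protein genes lie next to each other in the genome, and the neighbours differed in these cells. On GRCm38, *Acan* (chr7:79053226-79115099, plus strand) ends 1927 bases from the end of *Hapln3* (chr7:79117027-79133173, minus strand). *Acan* had a mean of 58.48 CPM and *Hapln3* one of 0.8041 CPM. *Hapln1* (chr13:89540529-89611832, plus strand) and *Vcan* (chr13:89655309-89743027, minus strand) are 43476 bases apart, with log2 fold changes of 0.95 and 0.11. The pair that functions together in cartilage, *Acan* and *Hapln1*, thus lies on 2 chromosomes. The brain members were low in all embryos, with *Ncan* at 2.67 to 3.595 CPM, *Hapln4* at 1.111 to 1.339 CPM and *Bcan* at 0.2299 to 0.3101 CPM, and none of these 3 passed edgeR's or DESeq2's threshold or had an unadjusted p below 0.05. *Hapln2* did not pass the filter on low counts.

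*Matn3* (chr12:8947929-8972028) lies 602413 bases from *Osr1* (chr12:9574442-9581500), the locus that carries the knock-in. Of 16 other tested genes within 2 Mb of *Osr1*, *Matn3* included, 0 passed edgeR's test, and the lowest adjusted p was the 0.473 of *Matn3*. Over all genes that test called 0.895% higher and 0.927% lower, so 0 of 16 is close to the share of all genes. *Cilp2* (chr8:69880366-69887392) lies 196136 bases from *Hapln4* with 7 coding genes between them. *Matn1* is at chr4:130944385-130955476, *Matn2* at chr15:34306681-34436242, *Matn4* at chr2:164389393-164405160 and *Cilp* at chr9:65265180-65280614.

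Markers of other cells that the sort could hold were also detected. Tendon markers summed to 408.2 and 343.7 CPM in GCE/+ embryos and 478.2 and 442.4 CPM in GCE/GCE embryos, and 3 of 6 were higher and 1 lower. The higher ones were *Tnmd*, *Mkx* and *Fmod*, at log2 fold changes of 2.06, 1.09 and 0.79, and *Kera* was lower at -0.71. Most of the sum was *Thbs4*, at 0.18 and not called, and *Kera*. DESeq2 called 4 of the 6 higher and 1 lower. Endothelial markers summed to 92.38 and 74.76 CPM against 70.42 and 56.28 CPM with 0 of 6 past edgeR's threshold, 4 at an unadjusted p below 0.05 and 1 called by DESeq2. The sums for muscle were 132.6 and 149.7 against 172.4 and 146.7 CPM, those for Schwann cells and nerve 20.05 and 22.51 against 24.07 and 19.51 CPM, and those for epidermis 13.91 and 16.64 against 14.16 and 14.54 CPM, and the groups overlapped in each. None of these markers was at 0 in all embryos. Their part in the values of the 10 genes was not tested.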

How the data were processed

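RNA of Osr1+ cells sorted from the limbs of 2 GCE/+ and 2 GCE/GCE embryos was sequenced as 50-bp paired-end reads from TruSeq v2 libraries. The authors mapped the reads to mm9 with TopHat2 and counted fragments per gene with HTSeq in its strict intersection mode, and deposited raw counts per gene. Tool versions were not given in the sources used here. Counts were tested with edgeR 4.0.16 in R 4.3.3 (filterByExpr, TMM, glmQLFit with legacy = FALSE, glmQLFTest, no covariate), with Benjamini-Hochberg adjustment over all 15645 genes and the study's threshold of 0.1. SE is the log2 fold change divided by the square root of F. Depth was 52121596 to 61402140 counts, and intervals of counts are exact Poisson at 95%.

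The members and lists were chosen with earlier results of these data known. After calls under the older quasi-likelihood fit, edgeR's default, had been seen, the newer fit was taken to follow earlier work on these files, and both call *Matn4* and *Cilp*. DESeq2 1.42.0 was first run with independent filtering at 0.1 and then at the 0.05 that the methods give, and both counts are given with the alternatives. The TATA and GC box letters were set after the promoters had been seen. Genes named were the 10 genes, *Osr1*, called and most abundant partners, the most abundant markers, genome neighbours and the 5 genes nearest to *Acan*. *Col10a1*, *Ihh*, *Pdgfra*, *Prrx1*, *Tnmd*, *Mkx*, *Rbpjl* and *Xist* were named after their values were seen. The procedure was tested on simulated counts. Levels per kb use GENCODE M21 exon lengths, a newer annotation than that of the counts, and 99.038% of symbols matched. GRCm38 coordinates come from RefSeq and were not converted from mm9. Same-numbered embryos did not deviate together (correlation 0.0018 over 9764 genes), so the numbers were not taken as pairs. Embryos are separate animals, but 2 a genotype limit the error estimate, with 2 residual degrees of freedom.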

Additional observations from a re-analysis of the deposited data

How the results depend on the processing

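With all 4 embryos, *Matn4* and *Cilp* were each past the threshold in 7 of 9 alternatives. Of the 10 genes, 2 were called with DESeq2, with RLE normalization and with the older quasi-likelihood fit, 0 without the filter on low counts, 1 with a robust fit, 1 with an offset for exon length, 4 with the replicate number as a block (*Hapln1* and *Matn1* added) and 2 with the block and the offset together. The labels name nothing that same-numbered embryos shared beyond the number, and do not say whether they had a litter or batch in common. The block is therefore not taken as a sign of a firmer result. Leaving out 1 embryo gave 4 to 5 of the 10 genes. Those calls are weak evidence. Without a GCE/+ embryo the spread rests on the GCE/GCE pair. In that pair *Hapln1* and *Matn1* were close. *Acan*, at a log2 ratio of -0.24 beside a median size of 0.11 over all genes, was closer than in the controls. Without a GCE/GCE embryo the prior degrees of freedom became infinite, so that each gene's own spread between the controls was replaced by the trend. The p-values of these fits are therefore not given as support. Over all genes, 285 were called, against 508 with DESeq2 (502 with independent filtering at 0.1), 127 without the filter and 199 to 961 with 1 embryo left out, the highest of these without GCE/+ replicate 2 and 748 without GCE/GCE replicate 1. Of the partner genes, 9 were called, 3 without the filter, and 10 to 22 with 1 embryo left out, the highest without GCE/+ replicate 2. The direction turned for *Vcan* with the length offset, to -0.071 without and -0.070 with the block, for *Matn2* without GCE/+ replicate 1, to 0.011, over a range of -0.319 to 0.011 with 1 embryo left out, and for *Cilp2* without GCE/+ replicate 1, to 0.067, and without GCE/GCE replicate 2, to 0.011, over a range of -0.485 to 0.067. Each was far from the threshold. The robust, older, length offset and second DESeq2 settings were chosen after seeing the data, and the cause of the moves between them was not tested. Counts of 38 to 63 an embryo limit *Hapln3* and *Cilp2*.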
